A study of Rattus norvegicus with 6 samples.

Results

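The genes described here encode the nuclear subunits of oxidative phosphorylation, split by complex I to V, with the complex I assembly factors. They were taken from the array by gene symbol (Nduf, Sdha to Sdhd, Uqcr, Cox4 to Cox8 and Atp5), which gave 69 genes of 13337 named ones, each read by a single probe. Of these, 29 belonged to complex I, 4 to complex II, 4 to complex III, 10 to complex IV and 13 to complex V. The other 9 were 7 complex I assembly factors, the pseudogene Ndufs6-ps1 and Cox7a2l, a factor of respiratory supercomplexes, and they were described apart. RNA came from bulk non-tumor liver of male Wistar rats, 1 Illumina array per rat. The 3 EGCG rats (EGCG_228, EGCG_234 and EGCG_236) received diethylnitrosamine (DEN, a hepatocarcinogen) by weekly intraperitoneal injection at 50 mg/kg for 18 weeks, and drank water with 0.02% epigallocatechin gallate (EGCG), a catechin from green tea, on 5 days a week in weeks 13 to 18. The 3 water rats (water_224, water_227 and water_237) received the same DEN injections and drank plain water. All were killed at 19 weeks, after 1 week of washout, and no rats without DEN were analysed here, so that every value below comes from DEN-treated liver.

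Oxidative phosphorylation takes place in the inner mitochondrial membrane. Complex I accepts electrons from NADH and complex II from succinate, both pass them to ubiquinone, complex III hands them to cytochrome c and complex IV to oxygen. Complexes I, III and IV pump protons, and complex V, the ATP synthase, makes ATP from their return. Most subunits are encoded in the nucleus and some in mitochondrial DNA, and hepatocytes are rich in mitochondria. The comparison asks whether the transcripts of these subunits differed in DEN-treated liver when EGCG was added.

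Values are log2 intensities after background correction and quantile normalization, and differences are EGCG minus water on that scale. The mean non-normalized intensity per array ran from 382 to 531. Of 9 hepatocyte markers on the array, 8 passed the filter on dim probes (a mean over the 6 arrays of at least 6.39), with albumin (Alb) between 14.79 and 15.32 in the 6 rats, while the probe of Apob lay between 6.15 and 6.46, at background. EGCG_236 was no closer to its own group than to the water rats: its mean correlation was 0.979 with the other EGCG arrays and 0.979 with the water arrays, over all probes tested. For EGCG_228 and EGCG_234 the mean correlations were 0.985 and 0.984 with EGCG arrays and 0.978 and 0.972 with water arrays. For many of the oxidative phosphorylation genes described below in which EGCG_236 stood apart from the other EGCG rats, the difference is therefore given with and without it. In bulk tissue, fewer cells of a type and less RNA per cell cannot be told apart.

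No oxidative phosphorylation transcript was called different with EGCG. Of the 64 genes that passed the filter, 0 had a limma adjusted p under 0.05, where 0.566% of the 9193 named genes tested did. At an unadjusted p under 0.05 there were 2 of 64 (Ndufa6 and Ndufaf6), where 11.6% of all named genes were past that level. The median difference over the 64 genes was 0.040, against 0.0037 over all named genes. Differences above 0 were found for 42 of the 64 (65.6%; 51.1% of all named genes). That share was 48.4% without water_224 (31 of 64, and 49.9% of all named genes), with a median of -0.0068. When any other rat was left out, it ran from 61.5% (without EGCG_236, 50.9% of all named genes) to 71.9% (without water_227, 52% of all named genes).

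The differences were also bounded. The 95% interval of the difference, from limma's moderated error and not adjusted for the number of genes, lay within 1.5-fold either way for 54 of 64 genes (79.3% of all named genes) and within 2-fold for 63 of 64 (95.2% of all named genes). The exception to the second bound was Ndufaf6. The 3 rats per group limit this precision. A value that missed the threshold does not show that the groups were equal.

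**Figure D1:**
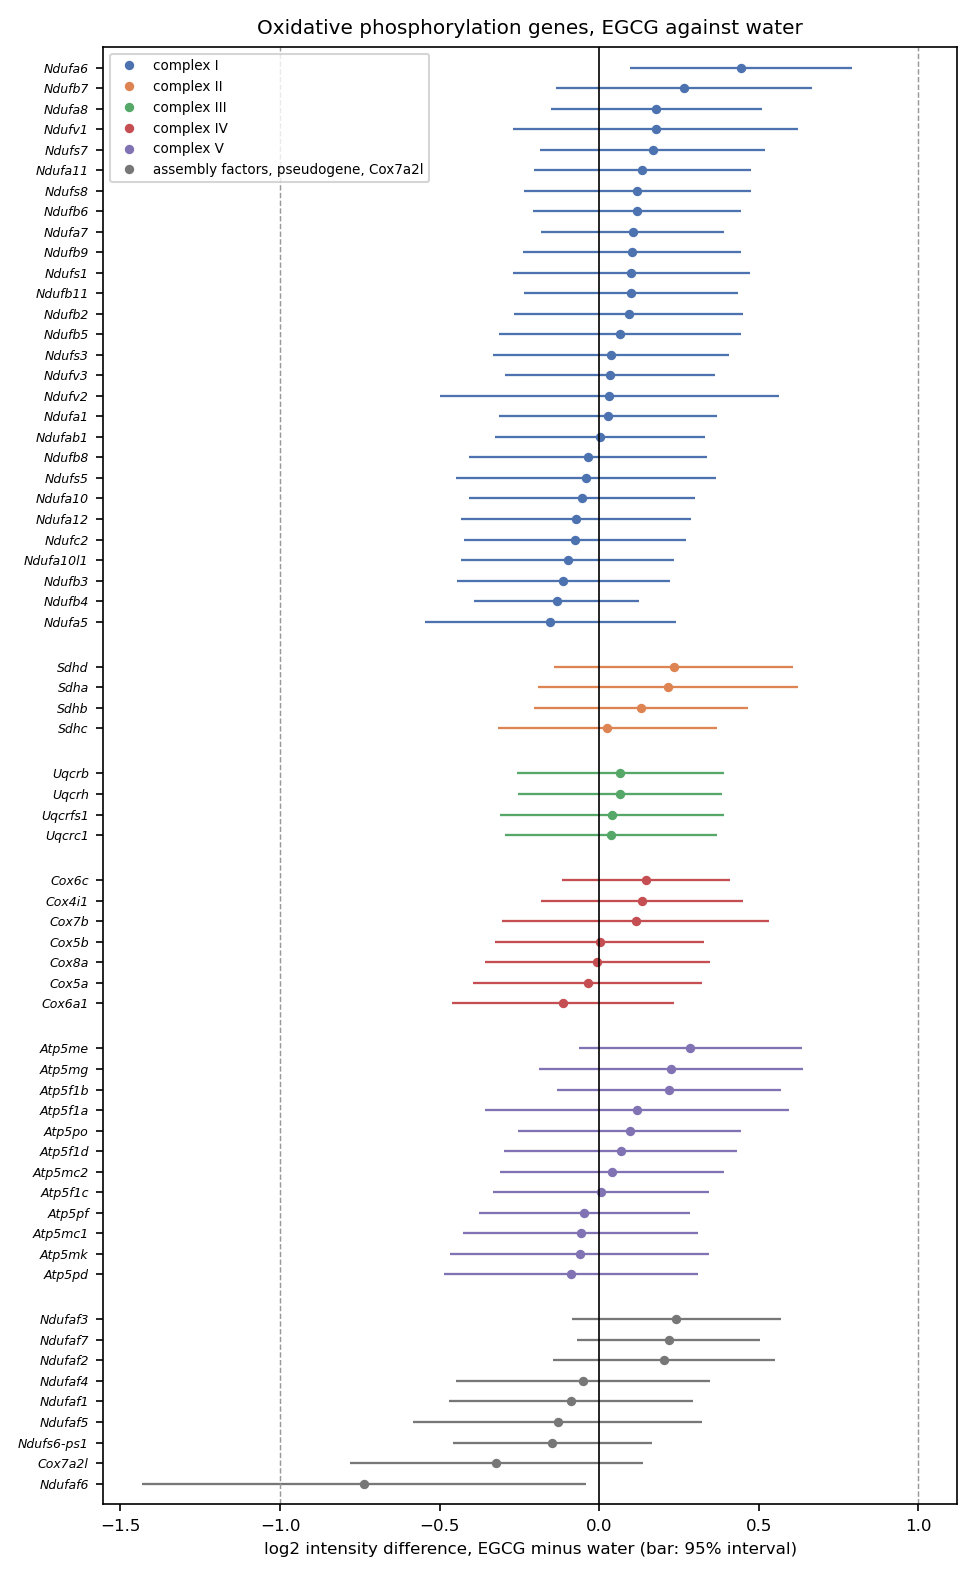
Each point is the log2 intensity difference of a gene, EGCG minus water (3 rats each), with its 95% interval, grouped by complex and ordered by size; dashed lines mark a 2-fold change. Points lie near 0 in every complex, Ndufa6 (0.45) is the highest and Ndufaf6 (-0.74) the lowest, and the interval of Ndufaf6 alone crosses a dashed line.

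Complex I carries its redox centres in core subunits, around which accessory subunits stabilise the structure. For the 6 core subunits on the array the differences ran from 0.033 (Ndufv2) to 0.18 (Ndufv1), with a median of 0.11, and all 6 were above 0 (51.1% of all named genes). In at least 1 alternative Ndufv2 and Ndufs3 were below 0 (lowest -0.24 and -0.058). By rat, the core subunit medians relative to the water mean overlapped between the groups, with EGCG_236 at 0.0064 and water_227 at 0.14. Ndufv1, which binds NADH and flavin, stood at 10.31, 10.07 and 9.59 in EGCG_228, EGCG_234 and EGCG_236, against 9.72, 10.05 and 9.67 in water_224, water_227 and water_237. All later values keep this order of rats. EGCG_236 lay below every water rat and EGCG_228 above, and the groups overlapped (difference 0.18, SE 0.20, limma adjusted p = 0.845). Without EGCG_236 it was 0.38 (adjusted p = 0.338). Ndufs1, the large iron-sulfur subunit that takes electrons from the flavin site, had 10.62, 10.62 and 10.23 in EGCG rats, against 10.52, 10.38 and 10.26 in water rats. Here too EGCG_236 was the lowest of the 6 animals (difference 0.10, SE 0.17, adjusted p = 0.906, and 0.23 without it, adjusted p = 0.51). Ndufv2, the other iron-sulfur protein of the NADH-binding module, ran the other way, with 11.40, 11.50 and 11.93 in EGCG rats and 11.04, 11.81 and 11.89 in water rats. Its spread among water rats (SD 0.47, n = 3) was the widest of the 64 genes in that group, since water_224 lay far below the other two. The difference was 0.033 with all rats and -0.12 without EGCG_236 (adjusted p = 0.981 and 0.867). Over the alternatives described at the end, which include leaving out water_224, it ran from -0.24 to 0.19.

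Among 22 accessory subunits of complex I that passed the filter, 13 differences were above 0 and 9 below, with a median of 0.031. Ndufa6, a subunit of the LYR protein family that holds the mitochondrial acyl carrier protein in the complex, had the largest positive difference of all 64 genes. It stood at 12.58, 12.69 and 12.69 in EGCG rats, against 12.07, 12.14 and 12.41 in water rats. Every EGCG rat was above every water rat, a 1.36-fold difference (log2 0.45, SE 0.16, 95% interval 0.098 to 0.79) that did not pass over all probes (limma adjusted p = 0.334). Without water_224 it was 0.37 (adjusted p = 0.63). Ndufab1, the acyl carrier protein that Ndufa6 binds, had 11.86, 11.68 and 11.83 with EGCG and 11.80, 11.83 and 11.73 with water, and its difference was the one with the largest unadjusted p of the complex (0.0018, SE 0.15, adjusted p = 0.999). The rats of both groups were interleaved for this gene. Ndufa8, an accessory subunit on the intermembrane side, had 10.07, 10.25 and 10.21 with EGCG and 9.86, 10.07 and 10.06 with water (difference 0.18, SE 0.15, adjusted p = 0.766). The lowest EGCG rat was only just above the highest water rat. Among the accessory subunits of complex I, Ndufb7 had the next largest positive difference after Ndufa6 (0.27, SE 0.18, adjusted p = 0.691), from 11.36, 11.58 and 11.61 with EGCG and 10.95, 11.29 and 11.52 with water, with overlapping groups. Over the alternatives the difference of Ndufb7 ran from 0.11 to 0.40. The most negative accessory subunit of complex I was Ndufa5 (-0.15, SE 0.18, adjusted p = 0.849), at -0.30 without EGCG_236 (adjusted p = 0.38). Ndufa10 and its near-identical relative Ndufa10l1 (-0.053 and -0.099) may share signal, and the probe annotated to the pseudogene Ndufs6-ps1 (-0.15) may read Ndufs6 itself.

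Assembly factors build complex I but are not part of the finished enzyme. The differences of the 7 on the array ran from -0.74 (Ndufaf6) to 0.24 (Ndufaf3) with a median of -0.050, and 3 were above 0. Ndufaf6, needed in an early step of assembly, stood at 8.14, 7.92 and 9.38 in EGCG rats, against 9.36, 8.97 and 9.32 in water rats. EGCG_228 and EGCG_234 lay well below the lowest water rat, whereas EGCG_236 was the highest of all 6. The difference over all rats was -0.74 (SE 0.32, 95% interval -1.43 to -0.041, limma adjusted p = 0.457). Without EGCG_236 it was -1.19 and passed (adjusted p = 0.0133), the only one of the 65 oxidative phosphorylation genes then tested to do so, where 1.71% of all named genes passed. Its spread among EGCG rats (SD 0.79, n = 3) was the widest of the 64 genes in that group. Ndufaf5 (a hydroxylase that acts on Ndufs7) resembled it, with 8.75, 8.51 and 9.35 with EGCG and 8.97, 8.91 and 9.12 with water (difference -0.13, SE 0.21, adjusted p = 0.901, and -0.37 without EGCG_236, adjusted p = 0.291). Ndufaf4 stood at 8.07, 7.87 and 8.54 with EGCG and 8.03, 8.29 and 8.31 with water, and Ndufaf1 at 7.80, 8.09 and 8.35 with EGCG and 7.93, 8.31 and 8.27 with water. In each of these 4 factors, and in Ndufaf2, EGCG_236 was the highest of the 6 rats. Without it the differences of Ndufaf4 and Ndufaf1 were -0.24 and -0.22 (adjusted p = 0.511 and 0.606), against -0.050 and -0.088 with all rats. Ndufaf3, which works with Ndufaf4 on the part of the complex that binds ubiquinone, did not share this order: it had 9.57, 9.76 and 9.49 with EGCG and 9.29, 9.34 and 9.46 with water. The groups did not overlap, but the difference did not pass (0.24, SE 0.15, adjusted p = 0.65). Ndufaf7, a methyltransferase of the assembly pathway, and Ndufaf2 differed by 0.22 (SE 0.13, adjusted p = 0.635) and 0.20 (SE 0.16, adjusted p = 0.74), the second at 0.067 without EGCG_236 (adjusted p = 0.891).

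**Figure D2:**
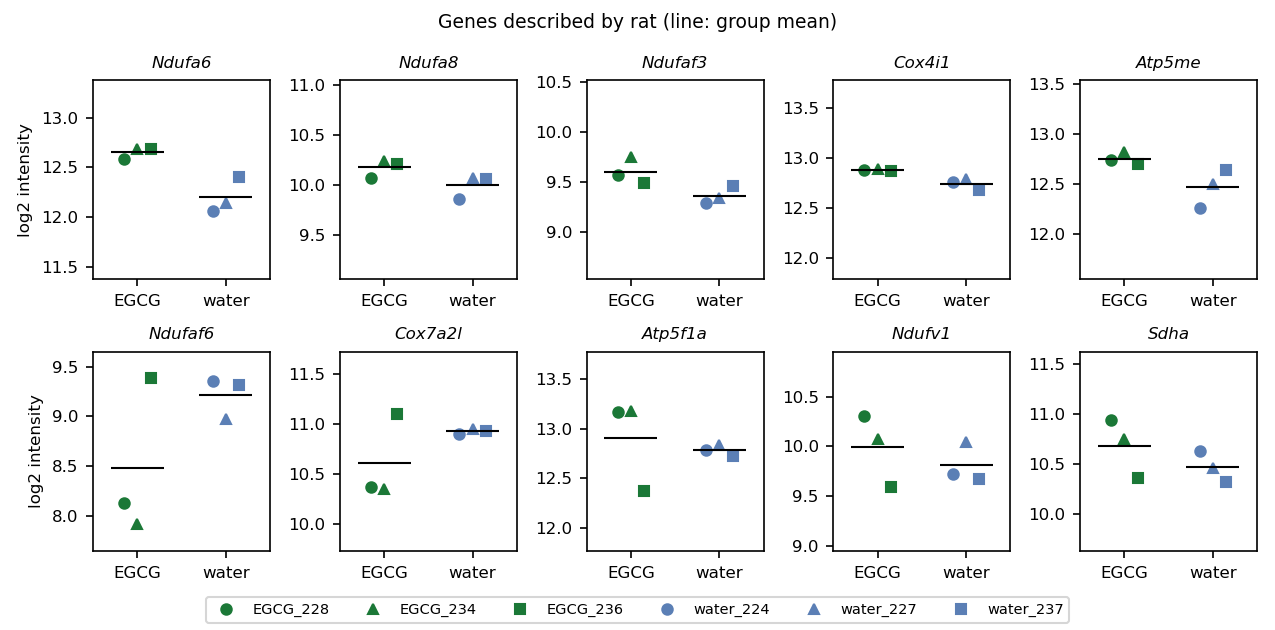
Log2 intensity of 10 genes in each rat, EGCG left and water right, with the group mean as a line; every panel spans the same range of 2 log2 units. The upper row shows the 5 genes whose groups did not overlap, and the lower row shows genes in which EGCG_236 (green square) stood on the other side of the water rats from, or far from, EGCG_228 and EGCG_234.

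Complex II, succinate dehydrogenase, also belongs to the citric acid cycle and is encoded wholly in the nucleus. All 4 subunits were on the array, and their differences lay between 0.026 and 0.23 (median 0.17), none past the threshold. Sdha, the flavoprotein that oxidises succinate, stood at 10.94, 10.75 and 10.37 in EGCG rats, against 10.64, 10.46 and 10.32 in water rats (difference 0.22, SE 0.18, limma adjusted p = 0.774). EGCG_228 and EGCG_234 lay above all water rats and EGCG_236 among them, and without EGCG_236 the difference was 0.38 (adjusted p = 0.301). Its partner Sdhb, the iron-sulfur subunit, showed the same order with 11.80, 11.70 and 11.59 in EGCG rats and 11.48, 11.63 and 11.58 in water rats (difference 0.13, SE 0.15, adjusted p = 0.848). Without EGCG_236 the difference of Sdhb was 0.18 (adjusted p = 0.599). The membrane anchors differed in order: Sdhd had 11.31, 11.29 and 11.56 with EGCG and 10.92, 11.32 and 11.22 with water (difference 0.23, SE 0.17, adjusted p = 0.712), and EGCG_236 was now the highest. Without it the difference of Sdhd was 0.15 (adjusted p = 0.742). Sdhc had 12.70, 12.58 and 12.82 with EGCG and 12.53, 12.70 and 12.79 with water, with a difference of 0.026 (SE 0.16, adjusted p = 0.978), or -0.033 without EGCG_236 (adjusted p = 0.947).

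Complex III gave the narrowest set of differences, from 0.037 to 0.066 in its 4 measured subunits (median 0.053). Uqcrfs1, the Rieske iron-sulfur protein that takes electrons from ubiquinol, stood at 12.01, 11.92 and 11.81 with EGCG and 11.76, 12.06 and 11.79 with water (difference 0.040, SE 0.16, limma adjusted p = 0.968). Uqcrc1, a core protein on the matrix side, had 11.19, 11.09 and 11.03 with EGCG and 10.98, 11.05 and 11.17 with water (0.037, SE 0.15, adjusted p = 0.968). The small subunits Uqcrb and Uqcrh each differed by 0.066 (adjusted p = 0.931 for both). The groups overlapped in all 4 genes.

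Complex IV, cytochrome c oxidase, has tissue isoforms of some subunits. The subunits of the complex that passed the filter differed by -0.11 to 0.15 (7 genes, median 0.0022). Cox4i1, a regulatory subunit that binds ATP, had 12.88, 12.89 and 12.87 in EGCG rats, against 12.76, 12.79 and 12.68 in water rats. The groups did not overlap, and the EGCG rats agreed more closely than for any other gene of the 64 (SD 0.0090, n = 3; SD 0.060 in water rats), but the difference was small (0.14, SE 0.14, limma adjusted p = 0.829). Cox6a1, the liver form of subunit VIa, stood at 13.45, 13.50 and 13.12 with EGCG and 13.43, 13.50 and 13.48 with water (-0.11, SE 0.16, adjusted p = 0.883). Cox5a, another small nuclear subunit, had 11.81, 11.83 and 11.45 with EGCG and 11.72, 11.78 and 11.70 with water (-0.036, SE 0.16, adjusted p = 0.972). In both, EGCG_236 alone lay below the other 5 rats, and without it the differences were 0.0076 for Cox6a1 and 0.086 for Cox5a (adjusted p = 0.986 and 0.828). Cox8a differed by -0.0060 (adjusted p = 0.997), and by 0.079 without EGCG_236 (adjusted p = 0.853). Cox5b differed by 0.0022 (adjusted p = 0.999), Cox7b by 0.11 (adjusted p = 0.905) and Cox6c by 0.15 (adjusted p = 0.755). Cox7a2l, which joins complexes III and IV into supercomplexes, stood at 10.37, 10.35 and 11.10 with EGCG and 10.90, 10.95 and 10.93 with water. The water rats agreed more closely than for any other gene in that group (SD 0.025, n = 3), EGCG_228 and EGCG_234 lay well below them and EGCG_236 above. The difference was -0.32 (SE 0.21, adjusted p = 0.671), and -0.57 without EGCG_236 (adjusted p = 0.0719).

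The muscle isoforms Cox6a2 and Cox8b and the testis isoform Cox8c did not pass the filter. Their non-normalized intensities lay between 90.7 and 131 in all 6 rats. Atp5mc3 and Ndufs4 were dim as well (85.7 to 119), and these 5 genes were not tested. The genes nearest the filter were Cox8b (6.36) just below it and Ndufs6-ps1 (6.63) just above. Of the 10 muscle markers on the array, 7 passed the filter and 0 were called, with a median difference of 0.0098. Their differences were above 0 for 4 and below 0 for 3, from -0.80 (Tnnt2, limma adjusted p = 0.246) to 0.10 (Mb, adjusted p = 0.82).

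Complex V consists of the catalytic F1 head, a ring of c subunits that turns in the membrane, a peripheral stalk and small membrane subunits. In the head, the 4 measured subunits differed by 0.0057 to 0.22. Atp5f1a, the alpha subunit, stood at 13.16, 13.18 and 12.37 in EGCG rats, against 12.79, 12.84 and 12.73 in water rats. EGCG_228 and EGCG_234 were above all water rats and EGCG_236 below all of them, so that the mean difference was 0.12 (SE 0.22, limma adjusted p = 0.914), and 0.37 without EGCG_236 (adjusted p = 0.203). Atp5f1b, the catalytic beta subunit, had 13.85, 13.99 and 13.55 with EGCG and 13.61, 13.52 and 13.60 with water (0.22, SE 0.16, adjusted p = 0.715). EGCG_236 lay within the water range here, and without it the difference was 0.35 (adjusted p = 0.234). Atp5f1c, the rotating gamma subunit, differed by 0.0057 (adjusted p = 0.997). The c subunit genes Atp5mc1 and Atp5mc2, whose different precursors give the same mature protein, differed by -0.058 and 0.040 (adjusted p = 0.951 and 0.968).

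In the stalk and membrane part, Atp5me, a subunit that helps synthase dimers form, had 12.74, 12.82 and 12.70 in EGCG rats, against 12.26, 12.50 and 12.64 in water rats. The groups did not overlap, with a difference of 0.29 (SE 0.16, 95% interval -0.063 to 0.64, limma adjusted p = 0.604). Without water_224 the difference of Atp5me was 0.19 (adjusted p = 0.843). Its neighbour Atp5mg had 12.20, 12.20 and 12.73 with EGCG and 11.98, 12.18 and 12.29 with water, where EGCG_236 alone was high (0.23, SE 0.19, adjusted p = 0.765). Without it the difference was 0.050 (adjusted p = 0.919). Atp5mk stood at 8.17, 8.18 and 8.75 with EGCG and 8.40, 8.63 and 8.26 with water. There EGCG_228 and EGCG_234 were the lowest of the 6 rats and EGCG_236 the highest (-0.060, SE 0.18, adjusted p = 0.953, and -0.25 without EGCG_236, adjusted p = 0.498). Atp5po, the stalk subunit that confers oligomycin sensitivity, was nearly level apart from water_224, with 13.61, 13.63 and 13.60 with EGCG and 13.27, 13.62 and 13.66 with water (0.097, SE 0.16, adjusted p = 0.904).

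Over the 64 genes, the groups did not overlap for 5, all higher with EGCG (Ndufa6, Ndufa8, Ndufaf3, Cox4i1 and Atp5me), and for 0 in the other direction. Of all named genes, 8.25% were apart and higher and 8.23% apart and lower. With median scaling only Ndufa6 and Atp5me were apart, both higher (5% of all named genes apart and higher, 7.21% lower). With cyclic loess 8 genes were apart and higher, the same 5 with Ndufa1, Ndufb6 and Sdhd (7.78% of all named genes higher, 8.5% lower). In the authors' normalized table the same 5 were apart and higher and Ndufb3 apart and lower (8.32% of all named genes higher, 8.23% lower).

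The promoter windows of these 5 genes are shown as the sequence beside the transcripts that lay apart. Windows came from RefSeq (GRCr8) and run from 250 bases before to 50 after the start of the gene. Of the 69 genes 60 had a window, and Ndufa8 had none. Capitals mark exact matches, on either strand, to 3 motifs bound by factors known for mitochondrial genes: the NRF1-type motif (GCGC and TGCGC with any 1 base between them), CCGGAAG (ETS-type, the core bound by GABP) and AAGATGGC (YY1-type). Atp5me (chr14:1464610-1464909, plus strand) held 1 match of each kind, Cox4i1 (chr19:65630133-65630432, plus strand) held 2 ETS-type matches just after its start, Ndufa6 (chr7:115750268-115750567, minus strand) held 1 ETS-type and 1 YY1-type match, and Ndufaf3 (chr8:118141674-118141973, minus strand) held 0 of the 3.
Ndufa6: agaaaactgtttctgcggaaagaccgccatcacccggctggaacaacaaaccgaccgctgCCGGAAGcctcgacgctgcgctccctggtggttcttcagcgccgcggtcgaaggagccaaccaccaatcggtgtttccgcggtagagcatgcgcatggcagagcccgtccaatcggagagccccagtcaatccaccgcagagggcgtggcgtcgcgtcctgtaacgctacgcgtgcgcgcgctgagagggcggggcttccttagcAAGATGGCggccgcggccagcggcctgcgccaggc
Cox4i1: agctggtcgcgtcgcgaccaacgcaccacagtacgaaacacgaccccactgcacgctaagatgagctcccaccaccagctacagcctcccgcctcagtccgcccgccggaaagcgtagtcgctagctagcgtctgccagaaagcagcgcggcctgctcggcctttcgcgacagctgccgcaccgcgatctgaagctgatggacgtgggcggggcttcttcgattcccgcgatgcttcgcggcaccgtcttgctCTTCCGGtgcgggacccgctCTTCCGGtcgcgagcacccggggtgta
Atp5me: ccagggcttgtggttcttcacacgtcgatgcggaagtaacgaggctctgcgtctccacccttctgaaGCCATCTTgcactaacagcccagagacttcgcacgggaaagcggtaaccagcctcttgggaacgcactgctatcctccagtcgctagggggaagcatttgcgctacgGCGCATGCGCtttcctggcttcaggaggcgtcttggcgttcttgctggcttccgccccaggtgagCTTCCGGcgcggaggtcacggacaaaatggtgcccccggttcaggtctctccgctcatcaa
Ndufaf3: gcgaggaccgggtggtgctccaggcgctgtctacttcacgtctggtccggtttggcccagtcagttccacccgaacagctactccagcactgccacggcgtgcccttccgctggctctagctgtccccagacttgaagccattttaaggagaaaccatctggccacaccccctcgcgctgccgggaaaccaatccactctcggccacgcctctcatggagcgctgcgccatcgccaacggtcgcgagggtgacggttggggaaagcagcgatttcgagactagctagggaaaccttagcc

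These letters were common among the genes as a whole. The NRF1-type motif was in 15 of 60 windows (25%), against 7.14% of the windows of all genes on the array and 4.25% of all windows in the table. The ETS-type motif was in 17 of 60 (28.3%), against 12.7% and 8.75%, and the YY1-type motif in 10 of 60 (16.7%), against 4.13% and 3.17%. At least 1 of the 3 was in 35 of 60 (58.3%; 21.1% of windows of genes on the array), and matches of different motifs overlapped in 0 of the 60. A match is a description of the sequence and not evidence that the factor binds in these livers.

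Rats of the same group differed from each other by about as much as for other genes. The median SD over the 64 genes was 0.14 in EGCG rats (0.15 over all named genes) and 0.15 in water rats (0.14 over all named genes; n = 3 each). Yet the rats did not share the extremes evenly. Water_224 was the lowest of the 6 rats for 31 of 64 genes (48.4%, against 18.5% of all named genes), and EGCG_236 was the highest for 21 of 64 (32.8%, against 19% of all named genes). EGCG_236 lay below both other EGCG rats for 25 genes, which at 39.1% was near the 38.3% of all named genes. The mean of EGCG_228 and EGCG_234 exceeded EGCG_236 by the most in Atp5f1a (-0.80, EGCG_236 minus the mean of the other two), Ndufv1 (-0.60), Sdha (-0.48), Ndufs1 (-0.39) and Cox5a (-0.37). EGCG_236 exceeded that mean by the most in Ndufaf6 (1.35), Cox7a2l (0.74), Ndufaf5 (0.72), Atp5mk (0.57), Ndufaf4 (0.57) and Atp5mg (0.53). These genes were picked by their values.

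**Figure D3:**
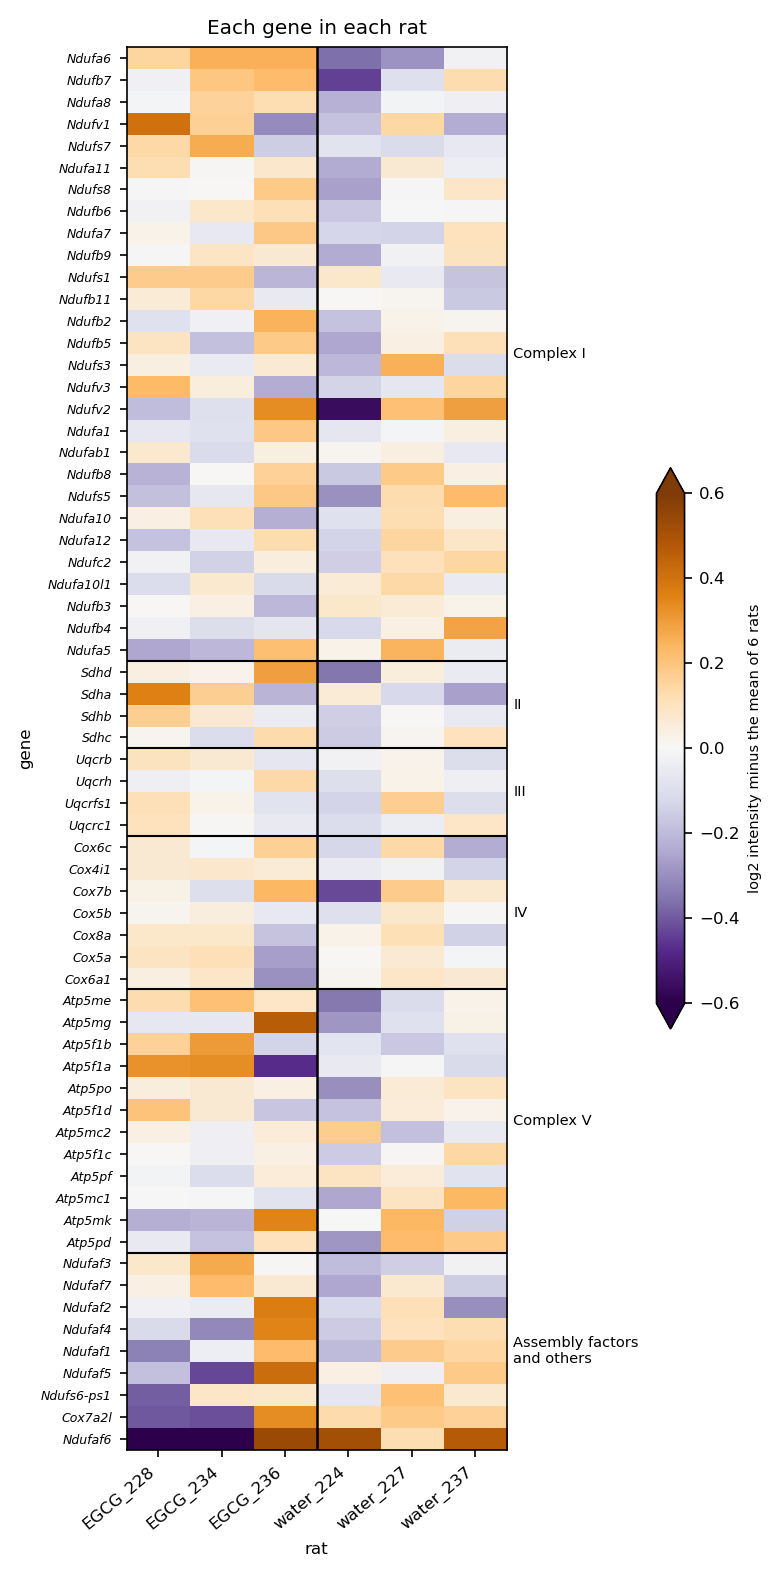
Each row is a gene and each column a rat (EGCG left, water right); colour is the log2 intensity minus the gene's mean over the 6 rats, orange high and purple low, with colours saturating at 0.6 either way. Water_224 is purple over much of complexes I and V, and EGCG_236 is orange for most assembly factors and purple for Atp5f1a, Ndufv1 and Sdha.

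Per complex, the rats' medians relative to the water mean overlapped between the groups except in complex II. There the EGCG rats lay at 0.20, 0.13 and 0.083, and the water rats at -0.11, 0.048 and 0.040. For each of its 4 subunits taken singly, the groups overlapped. In complex I the rats' medians lay at 0.050, 0.022 and 0.13 with EGCG and -0.13, 0.064 and 0.053 with water. In complex V they lay at 0.052, 0.020 and 0.050 with EGCG and -0.15, 0.042 and 0.099 with water. In complex III the values were 0.13, 0.037 and -0.037 with EGCG and -0.075, 0.057 and -0.032 with water. In complex IV they were 0.081, 0.059 and -0.058 with EGCG and -0.043, 0.085 and -0.032 with water. The median difference of complex IV was 0.0022 with all rats and 0.082 without EGCG_236. Water_224 was the lowest water rat in each of the 5 complexes.

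**Figure D4:**
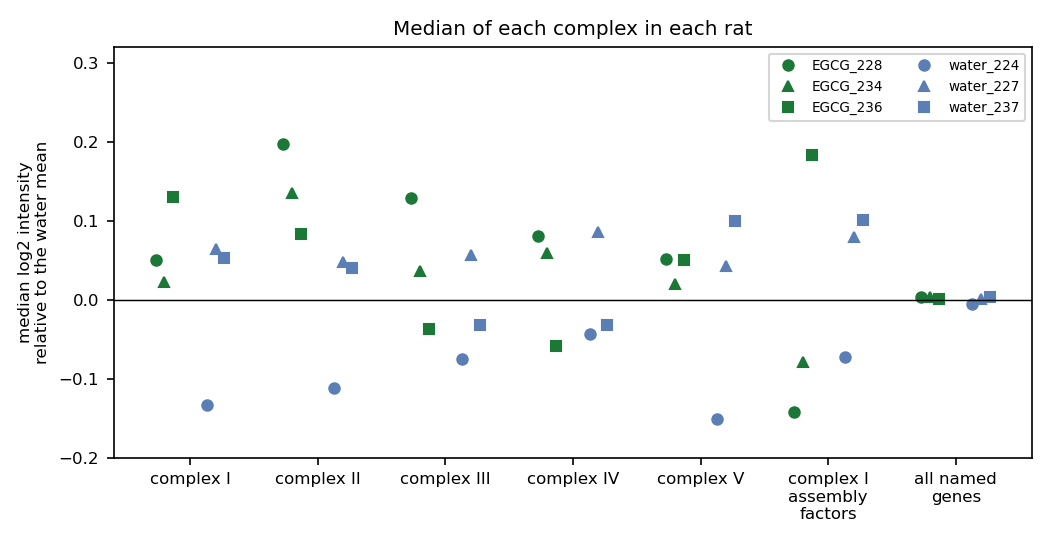
Each symbol is the median, over the genes of a complex, of a rat's log2 intensity relative to the water mean of each gene; EGCG rats are on the left in green and water rats on the right in blue, with complex I assembly factors and all named genes beside the complexes. Among the complexes, only in complex II do the medians of the groups not overlap, although the groups overlap for each of its 4 genes. Water_224 (blue circle) is the lowest water rat in all 5 complexes.

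Other genes that serve the respiratory chain were followed in fixed lists. Of the 27 assembly factors of all complexes that were tested, the 7 above among them, 0 were called, 21 had a difference above 0 and the median was 0.093. Acad9, which assists complex I assembly, stood at 7.17, 7.26 and 7.31 with EGCG and 6.49, 6.78 and 7.04 with water (0.48, SE 0.14, limma adjusted p = 0.232). Ttc19, a complex III factor, had 6.51, 6.36 and 6.42 with EGCG and 6.79, 6.58 and 6.64 with water (-0.24, SE 0.098, adjusted p = 0.415). The groups did not overlap in either. Of 17 electron carriers and ubiquinone genes, 0 were called, with a median of 0.14. Within this list Coq10b, a ubiquinone-binding protein, lay lower in every EGCG rat (9.80, 9.78 and 10.39) than in any water rat (11.97, 10.64 and 11.31), a difference of -1.32 (SE 0.30) that did not pass (adjusted p = 0.105), except with array weights (-1.34, adjusted p = 0.0475). Coq3, a methyltransferase of ubiquinone synthesis, had 10.20, 10.22 and 10.15 with EGCG and 9.34, 9.76 and 9.79 with water (0.56, SE 0.17, adjusted p = 0.227). Of 15 citric acid cycle and pyruvate dehydrogenase genes, 0 were called and 14 were above 0 (median 0.15), led by Dlat (0.30, adjusted p = 0.498) and Pc, pyruvate carboxylase (0.42, adjusted p = 0.55). By rat, this list's median was 0.31, 0.25 and -0.045 with EGCG and 0.027, 0.086 and -0.047 with water, so that EGCG_236 lay among the water rats. Of 11 regulators of mitochondrial biogenesis, 0 were called (median 0.042), and the largest differences belonged to the mitochondrial DNA polymerase Polg (0.43, adjusted p = 0.447) and RNA polymerase Polrmt (0.33, adjusted p = 0.55). The factors named with the motifs above stayed near 0, with differences of 0.057 for Nrf1, -0.15 for Gabpa and -0.065 for Yy1 (adjusted p = 0.909, 0.813 and 0.916). Of 26 symbols listed for mitochondrially encoded subunits, 0 were found among the gene symbols of the array, so these subunits were not analysed.

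In the list of ATP and phosphate export and coupling, 1 of 8 genes was called lower and 0 higher (0.446% and 0.12% of all named genes). Differences were below 0 for 5 and above 0 for 3. The groups were apart for 2, both lower (8.23% of all named genes were apart and lower). Slc25a4, the adenine nucleotide carrier that is abundant in heart and muscle, stood at 10.07, 9.65 and 10.09 in EGCG rats, against 10.92, 11.12 and 11.19 in water rats. The groups did not overlap, and the difference was -1.14 (SE 0.17, limma adjusted p = 0.0231). The adjusted p missed the threshold when EGCG_228 (0.0678), EGCG_234 (0.128), water_227 (0.09) or water_237 (0.0753) was left out, and under median scaling (0.0686). For the related carriers the values were near 0: Slc25a5, the more widely expressed adenine nucleotide carrier, differed by 0.012 and the phosphate carrier Slc25a3 by -0.031 (adjusted p = 0.993 and 0.977). Ucp2, an uncoupling protein family member found in macrophages, had 8.99, 9.12 and 8.40 with EGCG and 10.05, 9.23 and 9.36 with water (-0.71, SE 0.25, adjusted p = 0.321). Its groups did not overlap.

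Markers of some other cells were called lower in the same samples, in the stellate cell, endothelial and red cell lists only. Over all named genes, 0.446% were called lower and 0.12% higher. Of 8 stellate cell and myofibroblast markers 2 were called lower (Vim and Dcn) and 0 higher, and all 8 differences were below 0. Their summed linear intensity was 4588 to 5772 in EGCG rats and 8154 to 10102 in water rats. Of 3 endothelial markers 1 was called lower (Vwf) and all 3 differences were below 0. These markers summed to 895 to 1019 in EGCG rats and 1317 to 1963 in water rats. The 4 cholangiocyte markers (0 called) summed to 1630 to 2400 in EGCG rats and 2764 to 4421 in water rats, and the 6 macrophage markers (0 called, 5 with a difference below 0) to 8339 to 10606 in EGCG rats and 10535 to 14888 in water rats. The exception among the macrophage markers was the scavenger receptor Marco, with 8.71, 9.55 and 8.41 in EGCG rats and 7.88, 8.03 and 7.68 in water rats (1.03, SE 0.25, adjusted p = 0.131, and 0.0368 without EGCG_236). Of 4 red cell markers 2 were called lower (Hba-a1 and Hbb) and 3 had a difference below 0, and 0 of 5 lymphocyte markers were called (median -0.034). The 4 adipose and pancreas markers (0 called, all below 0, median -0.70) summed to 1126 to 1307 in EGCG rats and 1949 to 2244 in water rats, with no overlap, and Cpa1 passed with median scaling (adjusted p = 0.0468) and without water_224 (0.0248). Of 8 hepatocyte markers 0 were called (median 0.015), but single ones lay far from 0 in either direction, from -1.17 (Tat) to 0.67 (Cyp2e1), and Ttr (0.53) passed without EGCG_236 (adjusted p = 0.0405). Of the called markers, Hba-a1 kept its call in all 17 alternatives, whereas Hbb lost it in 8 (5 of them leaving out a rat), Vwf in 6 (5 leaving out a rat), and Vim and Dcn in 4 each (3 leaving out a rat, and median scaling). The part of these cells in the values of Slc25a4, Ucp2 and the oxidative phosphorylation genes was not tested.

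**Figure D5:**
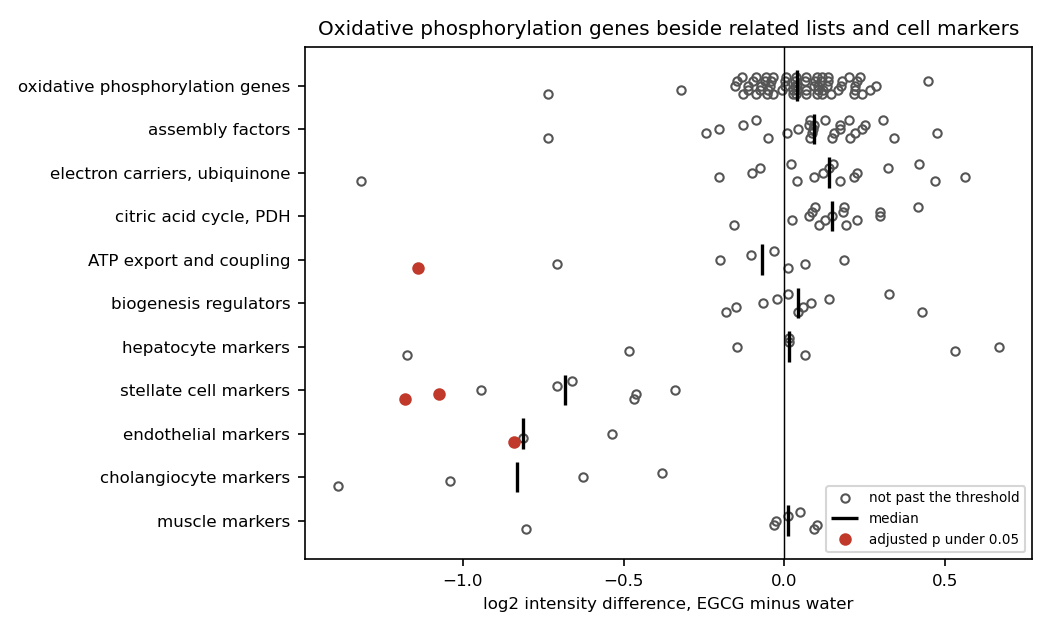
Each circle is the log2 difference, EGCG minus water, of a gene in a list (red where the limma adjusted p is under 0.05) and each bar is the list's median. The 64 oxidative phosphorylation genes gather near 0 (median 0.040), whereas the median is -0.68 for stellate cell, -0.81 for endothelial and -0.83 for cholangiocyte markers, and Slc25a4 is the red point in the ATP export list.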

How the data were processed

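RNA from non-tumor liver of 6 rats was hybridized to Illumina arrays, 1 per rat. The authors deposited linear, non-normalized intensities of 22523 bead probes; the values show neither background subtraction nor normalization between arrays (lowest intensity 53.4). The authors' deposited table of normalized intensities, method not given in the sources used here, served as an alternative. Neither table has detection p-values, and no scan batch was used. Intensities were background-corrected (limma normexp, offset 50), quantile normalized and log2 transformed. Probes with a mean below the 40th percentile (6.39) were left out, which kept 13514. The platform annotation named 13793 probes; genes were read at their brightest probe. Differences were tested with limma (lmFit, eBayes with an intensity trend, two-sided, Benjamini-Hochberg over 13514 probes, threshold 0.05, R 4.3.3, limma 3.58.1), a procedure tested on simulated data. The simulation was only required to recover log2 changes of 2, which is larger than any difference of the oxidative phosphorylation genes. The labels give 3 rats per group with a different number each. An exact permutation test of 3 against 3 cannot give a p below 0.1, so that medians are descriptions. The genes and lists were chosen with earlier results of these data known, and the promoter motifs after the values were seen. Genes named were, per complex, the 4 of smallest and the 1 of largest unadjusted p (assembly factors counted with complex I, Cox7a2l with complex IV), key subunits of each complex where measured, those past the threshold and the 2 of smallest p in each mitochondrial list; others, such as those whose groups did not overlap, were chosen after their values were seen. The alternatives covered the input table, background correction, scaling between arrays, filter, variance model, weights on arrays, genes with several probes, symbols and leaving out each rat.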

Additional observations from a re-analysis of the deposited data

How the results depend on the processing

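Over 17 alternatives, 0 oxidative phosphorylation genes were called except without EGCG_236, where 1 was (Ndufaf6), so that leaving out each rat gave 0 to 1. Called named genes numbered 52, 34 without an intensity trend, 141 with array weights and 8 to 158 when a rat was left out. Genes with groups apart numbered 5 (7.81%, against 16.5% of all named genes), 2 with median scaling (3.12%, against 12.2%) and 8 with cyclic loess (12.5%, against 16.3%). They numbered 7 to 21 when a rat was left out, where 22.4% to 34.2% of all named genes were apart. With both directions counted together, the share among the oxidative phosphorylation genes was below that of all named genes in each of these runs. For genes apart and higher alone this was not so in every run. That share was below all named genes in the main run (7.81% against 8.25%) and with median scaling (3.12% against 5%). It was above them with cyclic loess (12.5% against 7.78%) and without water_227 (13 genes, 20.3% against 12.7%). The 21, without EGCG_236, were 32.3% of the genes tested, where 34.2% of all named genes were apart with 2 rats against 3. Leaving out each rat moved the median difference of complex II between 0.083 (without EGCG_228) and 0.19 and that of complex IV between -0.041 and 0.082 (without EGCG_236). Over all 64 oxidative phosphorylation genes, 31 changed sign in at least 1 alternative, all with a difference of at most 0.15 in size, and 0 of the 31 passed in any alternative. Of the 30 genes named by rule, 13 did so. With array weights these were Atp5f1c (-0.0013), Cox5a (0.024), Cox8a (0.025), Ndufab1 (-0.0084) and Sdhc (-0.0036), with the authors' normalized table Cox5b (-0.0083) and Ndufab1 (-0.0082), and for Cox8a also median scaling (0.0086) and cyclic loess (0.037). Leaving out each rat gave -0.015 to 0.37 for Atp5f1a, -0.073 to 0.083 for Atp5f1c, -0.20 to 0.050 for Atp5mc1, -0.040 to 0.14 for Atp5mc2, -0.030 to 0.18 for Atp5po, -0.11 to 0.086 for Cox5a, -0.044 to 0.044 for Cox5b, -0.18 to 0.0076 for Cox6a1, -0.075 to 0.079 for Cox8a, -0.034 to 0.057 for Ndufab1, -0.047 to 0.087 for Sdhc, -0.0076 to 0.092 for Uqcrc1 and -0.018 to 0.14 for Uqcrfs1. Calls of genes outside oxidative phosphorylation that changed are given beside those genes. The cause of these shifts was not tested. Precision is limited by 3 rats per group and, without detection p-values, by an unknown background for dim probes such as Cox6c, Ndufb4 and Ndufs6-ps1. No paired analysis was possible because the labels give every rat a number of its own.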
